A study of Mus musculus with 4 samples.

Results

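The genes described here encode subunits of the transcription factor NF-kB, its inhibitors and its feedback regulators. They were chosen by name from a list of 10 genes, of which 9 had a probe set assigned to them alone (19 probe sets), out of 18193 genes measured. Nfkb1 is not analysed here, because no such probe set was listed for it in the annotation used. The list was also chosen because Tnfaip3 is higher in both deleted arrays, so the differences with deletion below are a description and carry no test for these genes.

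NF-kB is a dimer of Rel-family proteins. In resting cells it is held in the cytoplasm by inhibitor proteins of the IkB family, and signals from TNF, interleukin-1 or Toll-like receptors lead to destruction of the inhibitor and entry of the dimer into the nucleus. Several of its target genes encode proteins that restrain the pathway, among them the inhibitor IkB-alpha (Nfkbia) and the ubiquitin-editing enzyme A20 (Tnfaip3), so that their transcripts are commonly read as a record of pathway activity. In skin fibroblasts the pathway is known for driving genes of chemokines, cytokines and matrix proteases.

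RNA of mouse dermal fibroblasts on a C57BL/6 background was hybridised to 4 Affymetrix arrays, 1 for each of 4 groups. The in vitro pair compared cells in which Rbpj (also RBP-Jk or CSL) was deleted after an adenovirus with Cre recombinase with control cells given an adenovirus with GFP. The in vivo pair compared fibroblasts of mice carrying a ColI Cre transgene and floxed Rbpj alleles (RBP loxp-loxp) with fibroblasts of mice carrying the floxed alleles without Cre. Both cultures had thus received an adenovirus, and both groups of mice carried the floxed gene. The labels name the Cre transgene as ColI and say no more of the cells in which it acts. How many animals or cultures lie behind each array, and the age of the mice, is not given in the sources used here. There are no replicates within a group, so no difference within a pair has a replicate check or a p-value.

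Signals are given as log2 values after quantile normalization, and a difference is the deleted minus the control array. A level cutoff was set at log2 5.28, the 40th percentile of gene means, and 8 of the 9 genes lay above it. Where a gene has 1 value, it comes from the probe set with the highest mean, and the others are given beside it. Rbpj itself differed by 0.10, -1.11 and -1.34 over its 3 probe sets in vitro and by -0.49, -0.10 and -0.83 in vivo. All 9 fibroblast markers (among them Col1a1, Pdgfra and Thy1) were above the cutoff on each array. Of 8 macrophage markers, 5 and 4 were under it in vitro (deleted, control) and 6 on each in vivo array. The leukocyte gene Ptprc, 1 of the 8, was under it on each array, at 3.36 to 4.42. Lyz2 (6.73 to 8.76) and Csf1r (6.87 to 7.40) were above it on each. The bioB spikes, as deposited, were at 6.56 to 7.48 in vivo and 8.002 to 8.82 in vitro, so the systems and the batches in which arrays were run cannot be told apart.

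The stretches before the start sites of 3 members are shown because they hold matches to the NF-kB consensus, the 10-base motif bound by the factor. The sequences are the 250 bases before the start in RefSeq (build GRCm38.p6), 5′ to 3′ on the gene's strand. Capitals mark the matches on either strand. They lie at chr10:19015411-19015660 on the minus strand for Tnfaip3, chr12:55492648-55492897 on the minus strand for Nfkbia and chr19:46304487-46304736 on the plus strand for Nfkb2.
Tnfaip3: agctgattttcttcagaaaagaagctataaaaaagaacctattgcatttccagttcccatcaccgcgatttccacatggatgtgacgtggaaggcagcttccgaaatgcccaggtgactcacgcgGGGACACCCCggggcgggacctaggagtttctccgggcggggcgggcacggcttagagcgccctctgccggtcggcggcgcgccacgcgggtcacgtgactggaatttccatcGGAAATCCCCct
Nfkbia: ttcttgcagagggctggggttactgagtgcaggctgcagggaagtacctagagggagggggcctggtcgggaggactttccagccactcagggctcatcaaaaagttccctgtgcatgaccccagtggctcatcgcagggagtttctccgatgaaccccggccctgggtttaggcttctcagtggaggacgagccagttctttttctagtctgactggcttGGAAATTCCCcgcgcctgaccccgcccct
Nfkb2: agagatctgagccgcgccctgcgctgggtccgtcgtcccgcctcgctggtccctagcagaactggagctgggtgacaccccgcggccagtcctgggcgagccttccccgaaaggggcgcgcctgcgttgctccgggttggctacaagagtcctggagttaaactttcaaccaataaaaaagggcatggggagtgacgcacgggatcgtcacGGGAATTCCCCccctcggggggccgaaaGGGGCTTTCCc

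RefSeq windows were at hand for 7 of the members (10 windows in all), and 3 members had a match. Over all 32851 windows of the same length, counted by window and not by gene, 7.25% held one. In Tnfaip3 the matches lay 125 to 116 and 12 to 3 bases before the start, the former reading as a match on both strands. In Nfkbia the match lay 29 to 20 bases before it, and in Nfkb2 overlapping matches covered 39 to 29 bases and another covered 11 to 2. The other 2 windows of Nfkb2, at other start sites, held 1 match each. The other window of Tnfaip3, at another start site, held no match, nor did the windows of Rela, Bcl3, Birc3 and Traf1. The core bound by the protein that Rbpj encodes, TGGGAA, occurred on either strand in 21.6% of all windows. Among the members' windows it occurred in the printed one of Tnfaip3 alone, 197 to 192 bases before the start on the reverse strand. No base of Tnfaip3 was shared between the matches of the 2 motifs. A match describes the letters and is not a measured binding site.

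In the in vivo pair, Tnfaip3, Nfkbiz, Nfkbia and Relb were at least 1.5-fold higher in the deleted array. Rela, Bcl3, Nfkb2 and Birc3 differed by 0.09 to 0.21, so that all 8 members above the level cutoff had a difference above 0. Over the 10916 genes analysed, 8.02% were at least 1.5-fold higher and 46.4% had a difference above 0. Of the 19 probe sets 18 were higher, and the exception was a dim probe set of Birc3. The 18 include both probe sets of Traf1, equally dim, at 0.02 and 0.07. The shares of all genes are for brightest probe sets above the cutoff. No share over all probe sets was taken to set beside the probe set counts of either pair. In the in vitro pair, 1 member was at least 1.5-fold higher, Tnfaip3, where 5.1% of all genes were, and none was that much lower, where 9.66% of all genes were. In culture 6 of the 8 had a difference above 0 on the brightest probe set, as did 42.5% of all genes, but 10 of the 19 probe sets did, and 4 of the 5 of Nfkbia did not. The median difference of the 8 members was 0.40 in vivo and 0.16 in vitro, beside -0.03 and -0.06 over all genes analysed. These medians and the member counts include Tnfaip3, whose differences helped to choose the list, so they only describe it.

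**Figure D1:**
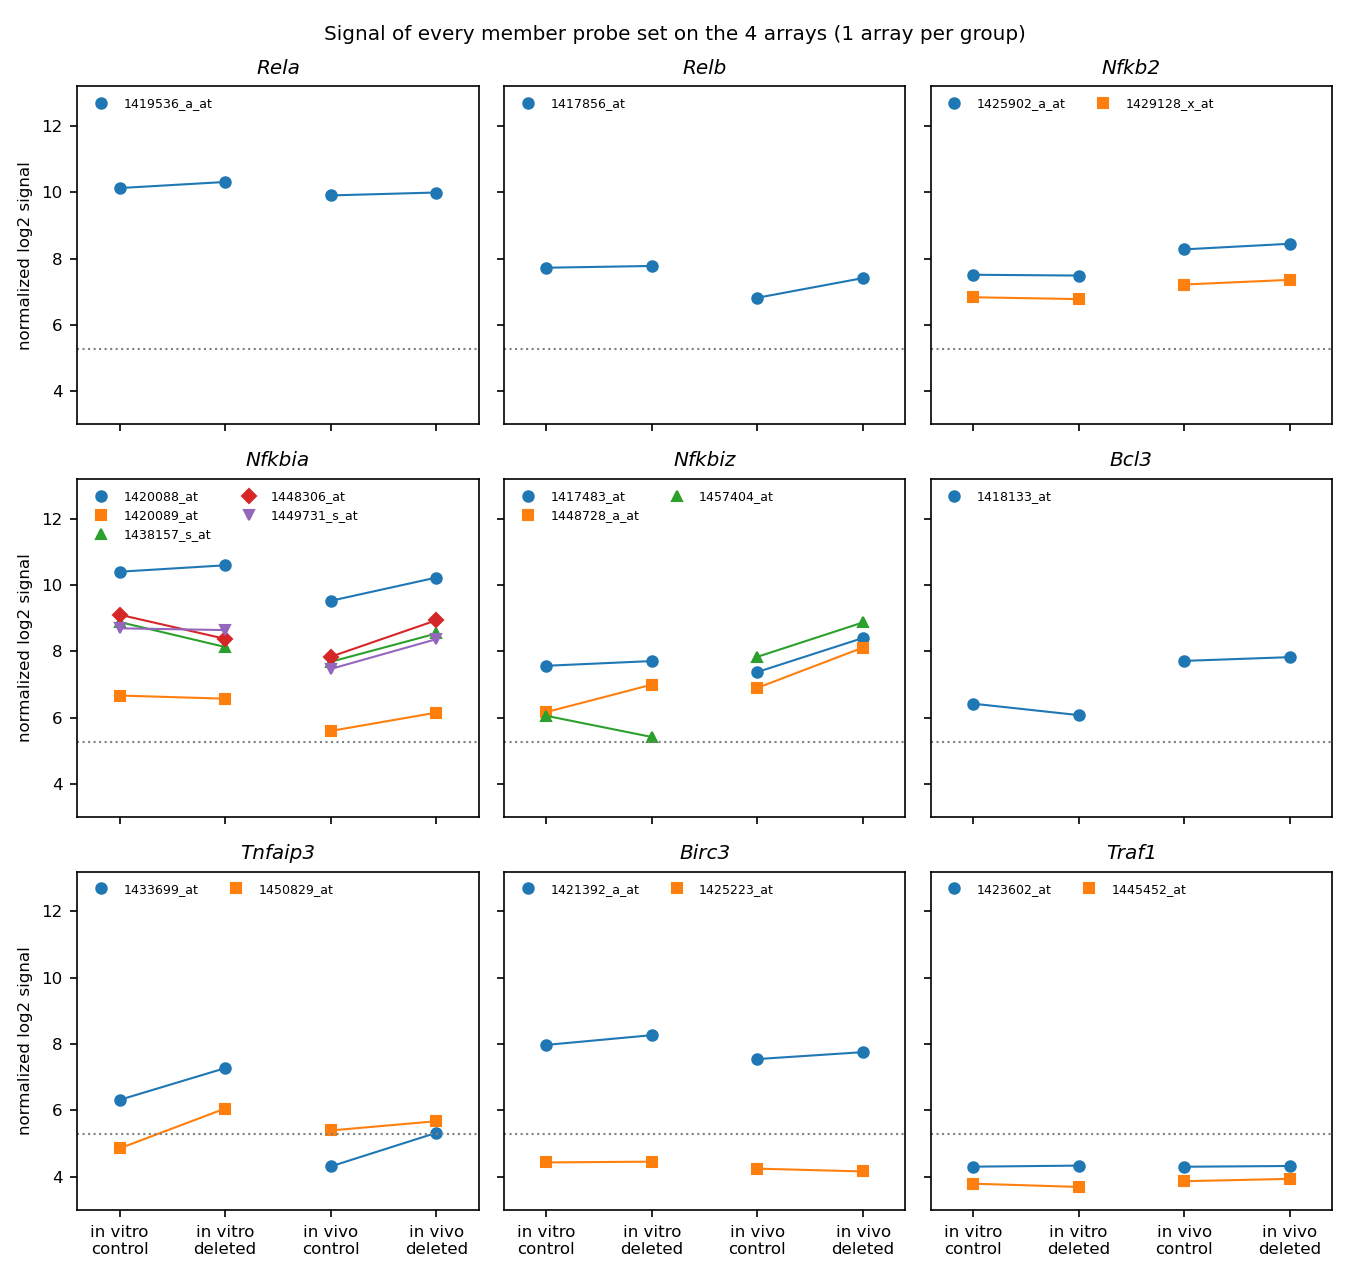
Normalized log2 signal (vertical axis) of every probe set of 9 genes on the 4 arrays (horizontal axis, 1 array per group). Lines join the control and the deleted array of a pair, and the dotted line is the level cutoff at 5.28. The 3 probe sets of Nfkbiz and the 5 of Nfkbia are all higher in the deleted in vivo array, whereas in vitro they run in both directions, and Traf1 lies under the cutoff throughout.

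Tnfaip3 encodes A20, which removes and edits the ubiquitin chains that carry the signal from TNF and Toll-like receptors. Its probe set 1433699_at read 7.28 in the deleted and 6.32 in the control culture, and 5.33 in the deleted and 4.31 in the control in vivo array. The other probe set, 1450829_at, read 6.06 and 4.86 in vitro and 5.68 and 5.40 in vivo. Both probe sets were thus higher with deletion in both systems, but not by the same amount. The differences were 0.96 and 1.20 in vitro (1.94-fold and 2.30-fold) and 1.01 and 0.28 in vivo (2.02-fold and 1.21-fold). On the brighter probe set the in vivo control signal was under the level cutoff, as was the in vitro control signal on the other. The 2.02-fold and the 2.30-fold thus rest partly on background signal. The differences of Tnfaip3 chose the gene.

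Nfkbia encodes IkB-alpha, the inhibitor that holds NF-kB in the cytoplasm and is made anew once the factor is active. Its 5 probe sets differed by 0.55, 0.70, 0.85, 0.90 and 1.10 in vivo, all higher in the deleted array. The brightest of them, 1420088_at, read 10.22 in the deleted and 9.52 in the control in vivo array, and 10.59 and 10.40 in the in vitro pair. Probe set 1448306_at read 8.94 and 7.84 in vivo, a 2.14-fold excess, and 8.38 and 9.10 in vitro, where the deleted culture was the lower. In vitro the 5 differences ran from -0.75 to 0.19, with 1 of 5 above 0, so no direction is given for Nfkbia in culture.

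Nfkbiz encodes IkB-zeta, a nuclear member of the family that is induced by NF-kB and needed for a second set of its targets. Its 3 probe sets were 2.04-fold, 2.05-fold and 2.32-fold higher in the deleted in vivo array. Probe set 1417483_at, the brightest by mean, read 8.40 against 7.38 in vivo and 7.71 against 7.56 in vitro. The probe sets were close to each other in vivo and far apart in vitro, where they differed by 0.14, 0.83 and -0.64. Probe set 1448728_a_at read 6.996 in the deleted and 6.17 in the control culture, and 1457404_at read 5.42 and 6.06, close to the cutoff.

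Bcl3 encodes an IkB-like nuclear cofactor of the p50 and p52 subunits. Its single probe set read 6.08 in the deleted and 6.42 in the control culture, and 7.82 and 7.71 in the in vivo pair. The differences of -0.35 and 0.11 were smaller than the gap between systems, since both in vivo arrays lay above both in vitro arrays.

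Among the subunits, Relb, the partner of p52 in the alternative pathway and itself an NF-kB target, was the one with a difference past 1.5-fold. It read 7.41 in the deleted and 6.82 in the control in vivo array, a 1.51-fold excess just inside that threshold, and 7.78 and 7.72 in vitro. Rela, the main activating subunit p65, read 9.99 and 9.90 in vivo and 10.31 and 10.12 in vitro. Its differences of 0.09 and 0.18 were small beside the SD over all genes analysed, 0.55 in vivo and 0.40 in vitro. Nfkb2, the gene of p100 and p52, read 8.45 and 8.28 in vivo and 7.49 and 7.51 in vitro, and its 2 probe sets differed by 0.17 and 0.14 in vivo. The matches in the Nfkb2 sequence printed above thus stand beside differences under 1.5-fold.

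Birc3 encodes cIAP2, a ubiquitin ligase of the TNF receptor complex. Its bright probe set read 8.27 and 7.98 in vitro and 7.76 and 7.55 in vivo, differences of 0.29 and 0.21. The dim one, at 4.16 to 4.46, was under the cutoff on each array. Traf1, an adaptor of TNF receptors that NF-kB induces in lymphocytes, lay under the cutoff on each array with both probe sets, at 3.70 to 4.34, and no difference is read from it.

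**Figure D2:**
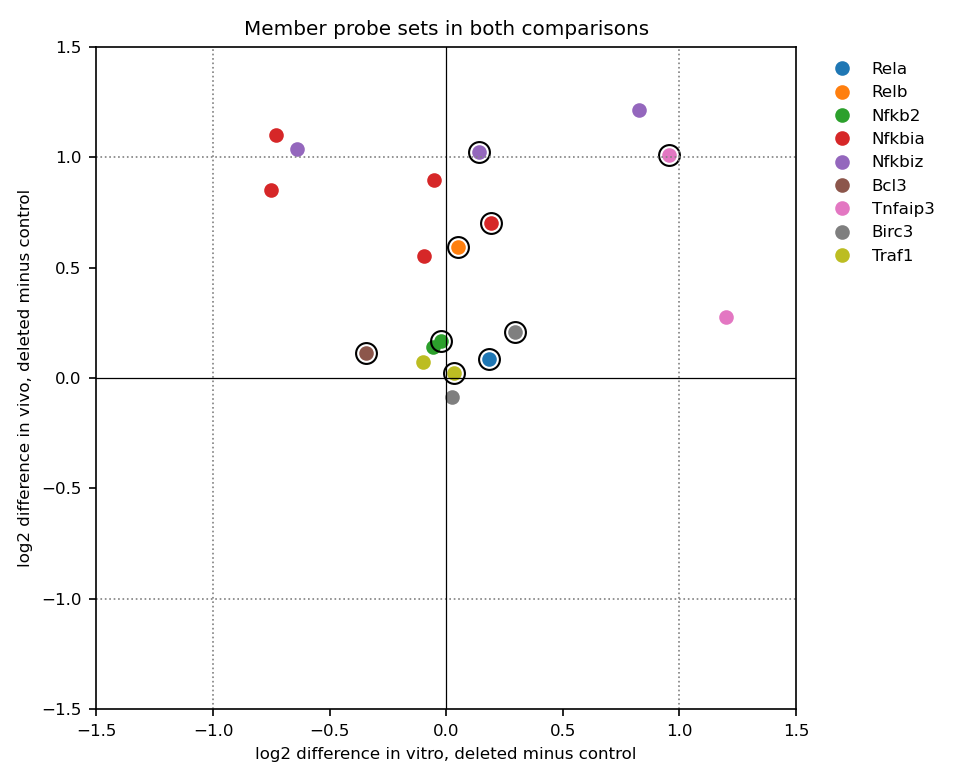
Log2 difference in vivo (vertical axis) against log2 difference in vitro (horizontal axis), deleted minus control, for each of the 19 probe sets, coloured by gene. Black rings mark the brightest probe set of a gene and dotted lines mark 2-fold. The points of Nfkbia and Nfkbiz lie at 0.55 to 1.21 in vivo and spread from -0.75 to 0.83 in vitro, and both points of Tnfaip3 lie at 0.96 or more in vitro.

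The spread between probe sets of a gene in vitro stands beside a difference between those arrays in 3′ against 5′ signal of control genes. Signal at the 3′ end of Gapdh was above that at the 5′ end by 1.003 in the control culture and 0.02 in the deleted culture, and for Actb by 1.11 and 0.40. For pyruvate carboxylase it was 3.16 and 2.01. The transferrin receptor, under the level cutoff in both cultures, ran the other way, at 0.96 and 1.45. In vivo the excess was 0.14 and 0.13 for Gapdh and 0.41 and 0.15 for Actb (control, deleted). Its part in the in vitro differences of Nfkbia and Nfkbiz was not tested.

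The in vivo differences stand beside markers of other cell types. In the deleted in vivo array the summed linear signal of 12 keratinocyte markers was 6508, against 625 in its control, 891 in the deleted and 1324 in the control culture. On the deleted in vivo array 4 of the 12 were under the cutoff, and 5 on its control. For 11 skeletal muscle markers the sum was 3576 against 823 in vivo, and 467 and 564 in vitro (deleted, control), with 1 and 3 of the 11 under the cutoff in vivo. These sums cover every marker with a probe set, since 1 keratinocyte and 3 muscle markers passed the level filter only through the deleted in vivo array. Macrophage markers summed to 407 and 504 in vivo, with 6 of 8 under the cutoff on each of these arrays. Adipocyte markers (Adipoq, Cidec and Retn) summed to 827 and 502 in vivo, and 4 neutrophil markers, each under the cutoff on the control, to 182 and 86.2. The 9 fibroblast markers summed to 54796 and 55318 in vivo (deleted, control), with a median difference of -0.07 and 3 of 9 higher. The lowest of them were Lum, a proteoglycan, at -1.06 and Pdgfra at -0.59. Keratinocytes also express Nfkbia, Tnfaip3 and Nfkbiz, and the part of these or other cells in the in vivo differences was not tested. In such bulk RNA, fewer cells of a type and less RNA per cell cannot be told apart.

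The genes around the members were read from 4 further lists, with 72 of 102 genes above the level cutoff. NF-kB target genes had a median difference of 0.54 in vivo, with 19 of 24 measured members higher and 6 at least 2-fold higher, where 2.81% of all genes were. The largest were Saa3, an acute-phase protein, at 3.32, Ptgs2, the inducible prostaglandin synthase, at 2.99 (2.12 on its other probe set), the protease Mmp3 at 2.73 and the complement factor Cfb at 2.47. Mmp9 and Ccl2 were the other two, at 1.64 and 1.28, and were named after their values were seen. No target was at least 2-fold lower in vivo, against 3.81% of all genes. The filter used the mean over 4 arrays, and 1 target passed it only through the deleted in vivo array. Of all 35 targets with a probe set, 25 were higher and 7 at least 2-fold higher in vivo. These targets include products that keratinocytes also make. In vitro, on the brightest probe sets, the target median was -0.04, 12 of 24 were higher and 0 were at least 2-fold higher (0.788% of all genes). Saa3 (-1.18) and Mmp3 (-1.02) were at least 2-fold lower, as were 1.15% of all genes. Over all their probe sets in vitro, Csf1 ran from 0.45 to 1.45, Vcam1 from 0.20 to 1.30, Ptgs2 from 0.45 to 1.01 and Bcl2l1 from -0.37 to 1.04. Cxcl10, an interferon- and NF-kB-induced chemokine, was at 0.51 and the antioxidant enzyme gene Sod2 at -0.53, with its 4 probe sets from -0.56 to -0.04.

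Saa3 read 11.10 in the deleted and 7.78 in the control in vivo array, and 7.18 and 8.36 in vitro. Ptgs2 read 9.35 and 6.36 in vivo, and 6.49 and 6.04 in vitro. The deleted in vivo array was the highest of the 4 for both genes. Mmp3 read 7.66 and 4.94 in vivo, the latter under the cutoff, and 7.32 and 8.34 in vitro, so that its in vivo control was the low array. Cfb read 8.27 and 5.80 in vivo and 7.45 and 7.74 in vitro, and its in vivo control was likewise the lowest array.

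On the brightest probe sets, none of 13 ligands and receptors, 20 signalling components or 15 other negative regulators was at least 2-fold different in vivo. Of all genes 6.62% were. In vitro the share of all genes was 1.93%, and 1 gene of these lists was past 2-fold on its brightest probe set. It was Traf5, an adaptor of TNF receptors, at -1.01 (0.20 on its other probe set). Other probe sets also passed 2-fold in vitro, among them those of Tollip at 2.01, Irak3 at 1.52, Map3k7 at 1.04 and Itch at -1.06. The in vivo medians of these lists, in the same order, were -0.03, -0.15 and -0.01. In vivo Il17ra, the receptor of interleukin-17, was at 0.86 (1.04 on its other probe set), Tnfrsf12a, the receptor of TWEAK, at 0.76 and Cd40 at 0.72. Tlr4, the receptor of lipopolysaccharide, was at -0.95 in vivo (-0.06 on the probe set nearest 0). In vitro Tnfrsf12a was at 0.60 and Il1rap, the coreceptor of interleukin-1, at 0.56 (-0.19 to 1.58 over 5 probe sets). Tlr3 was at -0.55 in vitro (0.22 on its other probe set) and Ltbr, the receptor of lymphotoxin, at -0.49.

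Tnfrsf12a was the receptor with values past 1.5-fold in both pairs, reading 10.98 and 10.38 in vitro and 10.96 and 10.20 in vivo. Among signalling components Tradd, the adaptor of the TNF receptor, was at -0.69 in vitro and -0.57 in vivo, but its 3 probe sets ran from -0.57 to 0.23 in vivo. Birc2, the gene of cIAP1, was at -0.56 in vivo and Traf6, an adaptor of interleukin-1 and Toll-like receptors, at 0.47 (-0.09 to 0.47 over its probe sets). In vitro Ikbkg, the regulatory subunit of the IkB kinase, was at 0.52 (-0.38 to 1.12) and Bcl10 at 0.46 (-0.12 to 1.27). Of the negative regulators, Zc3h12a, an RNase that degrades cytokine transcripts, was at 0.89 in vivo (0.15 on its other probe set). Irak3 (-0.52 to 0.21), Otud7b (-0.42 to 0.16) and Tank (-0.26 to 0.15) had probe sets on both sides of 0 in vivo. In vitro Tank was at 0.56 and 0.63 and Tnip2 at -0.55, while Rnf11 ran from -0.47 to 0.91 and Otud7b from -0.42 to 0.35.

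**Figure D3:**
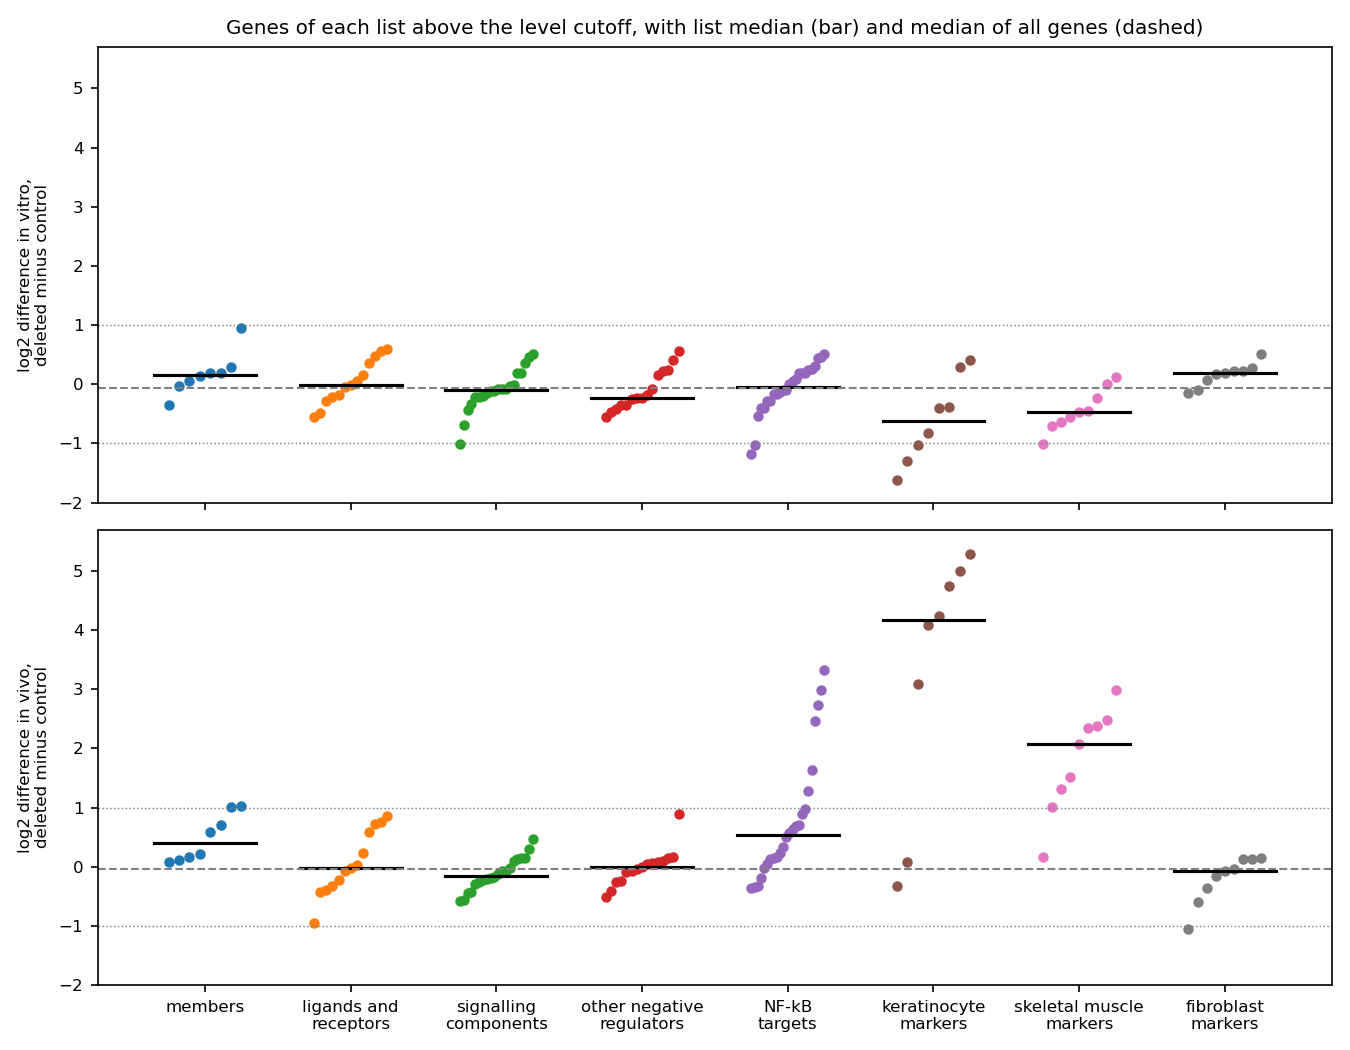
Log2 difference, deleted minus control, in vitro (upper panel) and in vivo (lower panel) for each gene above the level cutoff in 8 lists, sorted within the list. Bars are list medians, the dashed line is the median of all genes and dotted lines mark 2-fold. By median in vivo, the members (0.40, with Tnfaip3, which helped to choose the list) and the NF-kB targets (0.54) lie above the other pathway lists. The medians of the plotted keratinocyte and muscle markers lie above both. Of the plotted genes, 1 target, 1 keratinocyte and 3 muscle markers passed the filter only through the deleted in vivo array. Of all 12 keratinocyte markers with a probe set, 8 were higher in vivo.

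A deletion effect shared by both systems was fitted with limma over all 4 arrays, with system as a covariate and 1 residual degree of freedom. No gene of 10916 passed at an adjusted p of 0.05 (0% called), with limma's constant prior or with a variance trend. At an unadjusted p of 0.05 the fit called 759 genes (6.95%), 6 of them among the 72 other pathway and target genes. Thus 0 of these 72 genes passed in either direction, and their 6 unadjusted calls are a share near that of all genes.

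The same fit gave the difference between the systems in vivo and in vitro. It called 449 genes (4.11%), 147 higher (1.35%) and 302 lower (2.77%) in vivo. Bcl3 was higher in vivo by 1.52 ± 0.23 (SE; limma, adjusted p = 0.045), with both in vivo arrays (7.71 and 7.82) above both in vitro arrays (6.08 and 6.42). Over 10 alternatives its adjusted p in limma ran from 0.024 to 0.077. The call was lost with the values as deposited (limma, adjusted p = 0.061), with a pseudocount at the 20th percentile (0.059), with the median of all probe sets (0.068) and without the level filter (0.077).

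For Tnfaip3 no p is given between systems, because the error of this fit draws on how closely the deletion differences match, and those chose the gene. Its brighter probe set was lower in vivo, at 4.31 and 5.33 against 6.32 and 7.28. The other probe set had no such gap, with in vivo values of 5.40 and 5.68 within the in vitro range of 4.86 to 6.06.

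The other 6 members above the cutoff did not pass between systems. Nfkb2 had the largest of their estimates, 0.86 ± 0.20 higher in vivo (SE; limma, adjusted p = 0.087), with in vivo arrays at 8.28 and 8.45 against 7.49 and 7.51. Relb (-0.63), Nfkbia (-0.62), Birc3 (-0.47), Rela (-0.27) and Nfkbiz (0.26) had limma adjusted p-values from 0.17 to 0.60. For Nfkbiz the probe sets disagreed: the in vivo control was above the in vitro control by 1.78 on 1457404_at and below it by 0.19 on 1417483_at.

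Of the 72 other pathway and target genes, 5 passed between systems, all lower in vivo. They were Cxcl10 (-2.97), Icam1, an adhesion molecule (-1.96), the deubiquitinase gene Cyld (-1.65), Tlr3, a receptor of double-stranded RNA (-1.57), and Tab3, an adaptor of the kinase TAK1 (-1.27), with limma adjusted p-values from 0.015 to 0.048. Tlr3 (4.61 and 5.00) and Tab3 (5.11 and 5.02) were under the level cutoff on both in vivo arrays and passed the filter through the in vitro arrays, so the sizes of their differences are not exact. Both cultures, and neither in vivo sample by its label, had been given an adenovirus, so virus, culture and array batch cannot be told apart in this comparison.

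The genes whose profile over the 4 arrays lay nearest to that of Tnfaip3 were found by the Euclidean distance between mean-centred log2 values, among 10915 other genes. They were Aqp1 (distance 0.42), Ampd3 (0.52), Htr1b (0.53), Cep68 (0.54) and Gm4951 (0.56). Aqp1, the gene of a water channel, read 8.47 and 8.01 in vitro and 6.61 and 5.91 in vivo (deleted, control). Their likeness to Tnfaip3 was fixed by this choice, and it holds for the brighter probe set of Tnfaip3. No other member was among them.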

How the data were processed

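Poly(A) RNA was copied from a T7 oligo(dT) primer into biotin-labelled cRNA, per the labels' protocols, so signal depends on distance from the 3' end. The deposited values are log2 expression values of 45101 probe sets, from 2.87 to 13.79. The log2 scale was read from these values, and the authors' software and normalization are not given in the sources used here. They were quantile normalized over the 4 arrays with limma 3.58.1 in R 4.3.3. The platform annotation gave 34958 probe sets 1 gene symbol and 932 several, and 9211 were not in it. Symbols were updated through RefSeq (GRCm38.p6), where 34754 matched. A gene took its probe set with the highest mean, and 10916 of 18193 genes at or above the 40th percentile were analysed. Members and lists were chosen with earlier results of these data known. Named list genes are the 4 with the largest difference per list and pair, and those passing limma (lmFit, eBayes, Benjamini-Hochberg at 0.05). Others were named outside this rule with their values in view. Among them are Mmp9, Ccl2, Tollip, Map3k7, Itch, Csf1, Vcam1, Bcl2l1, Lcn2, Il1a, Il1b and Tnf. The number of arrays limits the precision. The procedures were tested on simulated data. Alternatives were other scalings, filters, probe set choices, thresholds and models.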

Additional observations from a re-analysis of the deposited data

Results flagged for a closer look

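With 1 array per group, a gene whose difference has opposite signs in the 2 systems stands out without a test, and whether the deletion differences of the 2 systems differ could not be tested for any gene named here. The values that follow are the in vivo minus the in vitro difference on the log2 scale. Among the members they were 0.46 for Bcl3 (-0.35 in vitro, 0.11 in vivo) and 0.19 for Nfkb2 (-0.02 and 0.17), and the in vitro sign of Nfkb2 turned after loess normalization and after centring. Among target genes they were 4.50 for Saa3, 3.75 for Mmp3, 2.76 for Cfb and 1.24 for Sod2, each lower in the deleted culture and higher in the deleted in vivo array. Among receptors they were -1.42 for Tlr4 and 1.04 for Il17ra, whose probe sets ran from -0.18 to 0.60 in vitro. Among signalling genes and negative regulators they were -0.73 for Ikbkg, 0.67 for Traf6 and -0.82 for Tank. Other probe sets of these 3 genes do not keep the opposite signs, with in vitro ranges of -0.38 to 1.12 for Ikbkg and -0.20 to 1.03 for Traf6, and an in vivo range of -0.26 to 0.15 for Tank.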

How the results depend on the processing

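Members at least 2-fold different numbered 0 in vitro and 2 in vivo, where 1.93% and 6.62% of all genes were. Tnfaip3 (0.96) lay just below the threshold in vitro, and Tnfaip3 (1.01) and Nfkbiz (1.03) just above it in vivo, so small shifts move these counts. In vitro the count was 1 at 1.5-fold, after loess normalization, after centring on the median, with the median of all probe sets and with the values as deposited. In vivo it was 4 at 1.5-fold, 0 at 3-fold, 0 with the 20th percentile added before log2, and 1 with the 60th percentile filter, which drops Tnfaip3, after loess, with the median of all probe sets and with the values as deposited. Of the other pathway and target genes, 3 were at least 2-fold different in vitro, and 1 after loess, after centring, with the values as deposited and with the 20th percentile added. The in vivo count of 6 stayed within 1.5 times under each of the 8 alternatives run. The 449 genes called between systems became 235 with the 20th percentile added, 823 with a variance trend, 85 with the median of all probe sets and 0 without the level filter, where limma tested 18193 genes. Member differences kept their sign except Nfkb2 in vitro (0.06 at most) and Nfkbia in vitro. With the median of all probe sets on each array Nfkbia was at -0.51 in vitro, and the median of its 5 within-probe-set differences was -0.09. In all, 124 of 126 member values moved by less than the SD over genes. The other 2 were Nfkbia and Nfkbiz (0.83) in vitro, both with the median of all probe sets. Changing the level filter or dropping probe sets named _x_at or _s_at left member values as they were. Part of the 124 was thus fixed in advance.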

Other observations

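Some genes of the lists lay under the level cutoff by their mean and entered no count. The target Lcn2, the gene of lipocalin 2, read 6.66 in the deleted and 4.58 in the control in vivo array, and 4.63 and 5.01 in vitro, so it was above the cutoff on 1 array. The neutrophil and keratinocyte genes S100a8 and S100a9 read 5.78 and 5.85 there, and 4.49 or less on the other arrays. Il1a and Il1b, the genes of the interleukin-1 ligands, differed by 0.16 and 0.07 in vivo at signals of 3.48 to 5.33. Tnf, the gene of the founding ligand, read 5.69 in the deleted and 5.92 in the control in vivo array, and 5.27 and 5.32 in vitro.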
